A study of Mus musculus with 8 samples.

Results

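The genes described here encode the precursor, the enzymes and the receptors of the angiotensin system: Agt, Ren1, Ace, Agtr1a, Agtr1b, Agtr2, Mas1, Lnpep and Enpep. They were taken by symbol, older symbols included, and are 9 of 19503 named genes on the array, measured by 16 of its 41174 probes. The mice were males of SKH-1, a hairless strain, 19 weeks old, whose backs had received UVB for 10 weeks and gave the skin RNA. Beginning 1 week later, the backs of 4 mice were treated with enalapril maleate (1% w/v, dissolved in 30 vol % ethanol), 100 microliters at a time, 5 times a week for 2 weeks. The other 4 mice had the same ethanol without the drug, and these are the vehicle group. Both groups were thus irradiated and exposed to ethanol, and unirradiated skin was not analysed here. The labels call the 4 samples of a group biological replicates, while the series text speaks of 6 mice per group and of a treatment time of 6 weeks as well.

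Renin cuts angiotensinogen, the product of Agt, to angiotensin I, and angiotensin-converting enzyme, the product of Ace, turns this into angiotensin II. Angiotensin II acts mainly through the AT1 receptor, which mice encode in a pair of genes, Agtr1a and Agtr1b, while the AT2 receptor (Agtr2) and Mas are known for opposing effects. Enpep makes angiotensin III from angiotensin II, and Lnpep binds angiotensin IV. Skin is known to make parts of the system locally, and fat cells are a known source of angiotensinogen. Enalapril is an ester that tissues turn into the active inhibitor of angiotensin-converting enzyme.

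Each sample was hybridised to a 1-colour Agilent array, on which 67.1% to 72.7% of spots were well above background and none was saturated. Levels are log2 of the processed intensity minus the 75th percentile of the array, and levels are compared between arrays, never between probes. That percentile was 821.5 to 1070 intensity units on the enalapril arrays and 884 to 1540 on the vehicle arrays. All enalapril arrays were on slide 2 and scan 2 and all vehicle arrays on slide 1 and scan 1, so no difference below can be told apart from one of slide or scan. Enalapril 4 stood apart, with a median correlation of 0.978 with its own group where the other 7 arrays had 0.988 to 0.991. It was the only array nearer to the other group, with a median distance over the tested probes of 104 to the vehicle arrays and 110 to its own group. Values without enalapril 4 are given where leaving it out changed a call or moved a named probe by much. Keratinocyte markers were bright in both groups: Krt14 stood at a mean level of 8.15 in enalapril skin and 8.06 in vehicle skin, and Krt10 at 8.28 in enalapril skin and 8.35 in vehicle skin.

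The gene starts below are those of Agt, the only gene of the system past the test, of Ren1, whose product acts on it, and of Ace, the gene of the drug's target. Ace has 2 annotated starts, and a start inside the gene is known to serve the testis. Each sequence is the 60 bases before an annotated start, read 5′ to 3′ on the gene's strand, from RefSeq on build GRCm38.p6. Capitals mark TATAAA, the TATA box core, or GGGCGG, the GC box core, on either strand.
Agt: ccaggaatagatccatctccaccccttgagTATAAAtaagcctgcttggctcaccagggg
Ren1: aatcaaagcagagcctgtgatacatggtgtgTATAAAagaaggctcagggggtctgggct
Ace, start 1: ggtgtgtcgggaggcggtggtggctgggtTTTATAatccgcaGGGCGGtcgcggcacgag
Ace, start 2: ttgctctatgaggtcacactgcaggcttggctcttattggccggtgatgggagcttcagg

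These windows lie at chr8:124569707-124569766 on the minus strand for Agt and at chr1:133350614-133350673 on the plus strand for Ren1. For Ace they lie at chr11:105967888-105967947 and chr11:105975129-105975188, both on the plus strand. TATAAA begins at position -30 from the start of Agt and -29 from that of Ren1. At start 1 of Ace it lies on the opposite strand, so that its reverse complement, TTTATA, begins at -31 in the sequence printed. Of 9 starts found for 8 of the genes, 5 held TATAAA on either strand, the other two being Agtr1b and Enpep, while 3.92% of all 32851 starts in the table did. GGGCGG was in 2 of the 9, start 1 of Ace and Lnpep, against 18.6% of all starts. No start was matched for Agtr1a. A match describes the letters only.

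Agt, the precursor gene, was the one member past the test, and its signal was 1.99-fold lower on the enalapril arrays. Its processed intensity was 3020, 1520, 1230 and 2910 on enalapril arrays 1 to 4, against 3990, 6250, 7550 and 3800 on vehicle arrays 1 to 4. As levels these were 1.50, 0.79, 0.58 and 1.73 in enalapril skin and 2.16, 2.02, 2.29 and 2.10 in vehicle skin. Every enalapril array lay below every vehicle array, and the enalapril arrays were spread more widely, with means of 1.15 ± 0.55 in enalapril skin and 2.14 ± 0.11 in vehicle skin (SD, n = 4 each). The difference, in log2, was −0.996 ± 0.25 (SE, 95% interval −1.56 to −0.43), with an adjusted p of 0.0409 in limma's test over all probes. An exact permutation test of the means gave its smallest possible two-sided p, 0.0286.

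The call for Agt depended on which arrays were used. Enalapril 2 and 3 were the low arrays, and enalapril 1 and 4 lay nearer to the vehicle group. Without enalapril 4 the difference was −1.19 with an adjusted p of 0.00914. Without enalapril 1, 2 or 3 or any of the vehicle arrays the call was lost, with differences of −1.11 to −0.81 and adjusted p of 0.0612 to 0.102. It was also lost by quantile normalization (0.0592) and by centring on the median (0.0536) or on E1A control probes (0.0553), with Agt lower in each. Calls over all 28580 probes moved too, with 7061 without enalapril 4 and 410 to 1733 without another array, against 2979 with all arrays. With all arrays, 10.4% of all probes tested were called changed, 3.82% higher and 6.61% lower. Among the 11 tested probes of the angiotensin genes 1 was called, a share of 9.09% and so near the background.

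**Figure D1:**
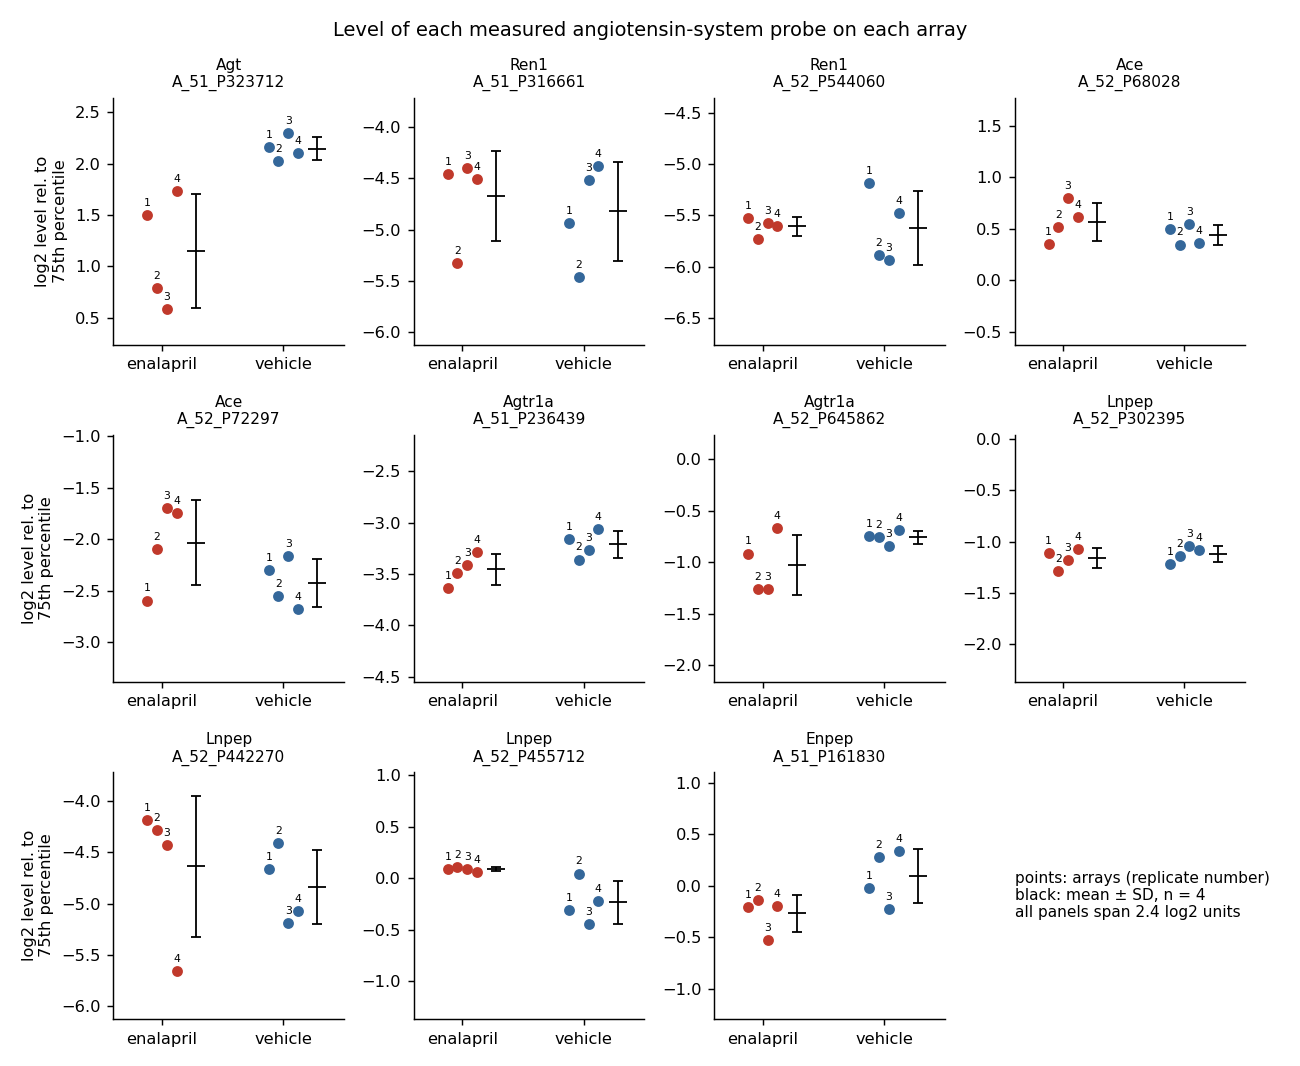
Level (log2 relative to the array's 75th percentile) of each of the 11 tested probes on each array, enalapril in red and vehicle in blue, numbered by replicate, with the mean and SD in black. All panels span the same range; Agt is the probe with the widest gap between the groups, and the brightest Lnpep probe has 4 nearly equal enalapril values.

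Markers of fat and muscle also stood lower on the enalapril arrays. Of 12 adipocyte markers tested, 4 fell and none rose (Slc2a4, Cidec, Adipoq and Pnpla2), where 8.59% of all genes were lower, and the median difference over the list was −0.46. Their log2 summed level ran from 7.83 to 8.49 in enalapril skin and from 8.46 to 8.77 in vehicle skin, and all 12 were bright enough to be tested. The mean level of the list was 2.67, 2.81, 2.63 and 3.15 on enalapril arrays 1 to 4 and between 3.20 and 3.30 on the vehicle arrays, so that enalapril 4 was the nearest to vehicle for this list as it was for Agt. Slc2a4 encodes GLUT4, through which insulin drives glucose uptake, and it fell by 0.77 ± 0.14 (adjusted p = 0.0185). It lost its call without enalapril 1 or 2 or vehicle 1 (up to 0.0573). Within each group Slc2a4 ranked the arrays as the skeletal muscle list below did, with vehicle 3 highest and enalapril 4, at 2.02, below enalapril 3, at 2.05. Which tissue Slc2a4 stood for was not tested. The hormone gene Adipoq fell by 0.44 ± 0.11 (adjusted p = 0.0416), and of the fits with 1 array left out it passed only in that without enalapril 4 (0.0125, otherwise up to 0.101). Cidec, a lipid droplet gene, fell by 0.76 ± 0.16 (adjusted p = 0.0266), and likewise passed only without enalapril 4 (0.00342, otherwise up to 0.0743). Pnpla2 fell by 0.61 ± 0.16 (adjusted p = 0.0475) on its brighter probe, and its other probe was at −0.15 (adjusted p = 0.664). In RNA from whole skin, fewer cells of a type and less RNA per cell cannot be told apart.

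Of 10 skeletal muscle markers 5 fell (Mylpf, Tnnt3, Tnnc2, Pvalb and Tnni2), with a median difference of −0.68 and a log2 summed level of 9.20 to 9.41 in enalapril skin and 9.50 to 10.0 in vehicle skin. Their mean level was 5.04, 5.07, 5.13 and 5.09 on enalapril arrays 1 to 4, against 5.82, 5.26, 6.06 and 5.57 on the vehicle arrays, so the 4 enalapril arrays were close to one another for muscle and spread out for Agt. Mylpf encodes a regulatory light chain of fast muscle myosin, and it fell by 0.85 ± 0.14 (adjusted p = 0.0174). It lost its call without enalapril 2 or vehicle 1 (up to 0.0531). Of the 8 fits with 1 array left out, Tnnt3 passed in 3 (otherwise up to 0.0633) and Tnnc2 in 4 (otherwise up to 0.0701). By deviations from the group means, the Pearson r of Agt over the 8 arrays was 0.63 with the mean of the adipocyte list and 0.14 with that of the muscle list. It was 0.72 with the endothelial, 0.71 with the mast cell, 0.64 with the macrophage and 0.48 with the fibroblast list. For the peripheral nerve, pericyte and smooth muscle, and keratinocyte lists it was 0.09, −0.05 and −0.44. These values are a description with no test. The part of any of these tissues in the difference of Agt was not tested. Of the other marker lists, 1 of 10 fibroblast markers (Fbln1) and 1 of 8 peripheral nerve markers (S100b) fell and 1 of 8 macrophage markers (Itgam) rose, where 8.59% of all genes were lower and 2.4% higher. On the brightest probe of each gene, none of 10 keratinocyte and 8 mast cell markers was called in limma's test. An unadjusted p under 0.05 was found for 1 and 0 of them, beside 30.4% of all genes. Another probe of the keratinocyte gene Trp63 rose by 0.77 (adjusted p = 0.0437), with its brightest at 0.35 (0.0644) and the remaining one at 0.47 (0.234). Another probe of the fibroblast gene Col1a1 rose by 0.89 (adjusted p = 0.0365), with its brightest at 0.04 (0.909) and the remaining one at −0.01 (0.990).

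**Figure D2:**
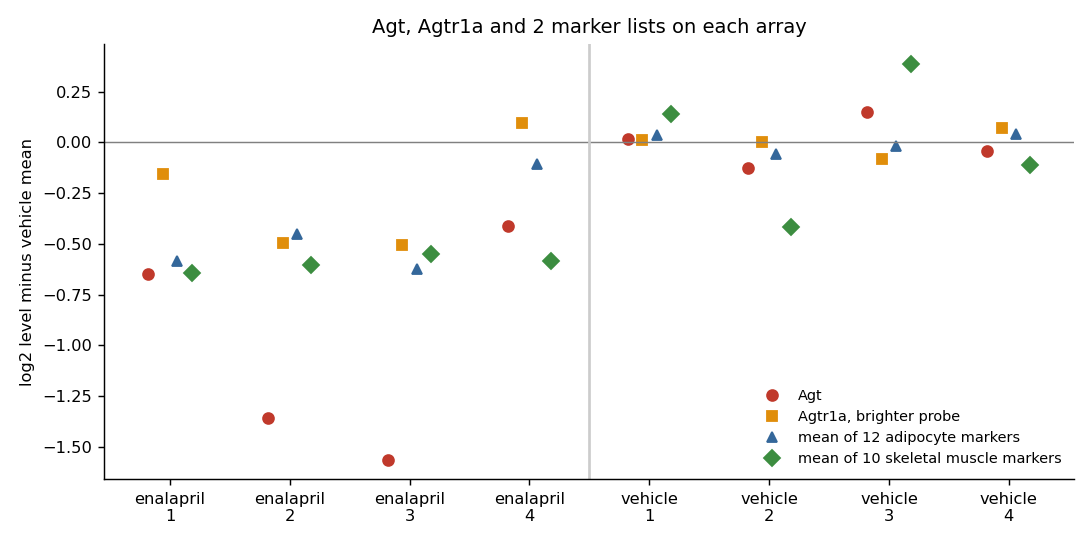
Level of Agt, of the brighter Agtr1a probe and of the mean of the adipocyte and skeletal muscle marker lists on each array, as log2 minus the vehicle mean. Agt was lowest on enalapril 2 and 3, the muscle list was about equally low on all 4 enalapril arrays, and the adipocyte list was nearest to vehicle on enalapril 4.

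Genes whose levels ran most like Agt over the 8 arrays were Cd320, with a Pearson r of 0.99, and Bean1, Slc14a1, Nnmt and Crispld1, each with 0.98. By deviations from the group means, which leave out the difference between groups, they were Mrpl35 and Cd320 with 0.99, Slc14a1 with 0.98 and Ogfrl1 and Crispld1 with 0.97. Both rankings hold Cd320, the transcobalamin receptor gene, Slc14a1, a urea transporter gene, and Crispld1. These are the highest of 14935 genes compared on 8 arrays that share slide by group, and are a description with no test. None of the 7 genes passed the test between the groups. Slc14a1 differed by −0.48 (adjusted p = 0.111) and Nnmt by −0.52 (adjusted p = 0.0645).

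Among the enzymes that make angiotensin II, renin was dim and did not differ beyond its spread. The first Ren1 probe, A_51_P316661, gave 48.5, 22.0, 38.8 and 38.5 intensity units in enalapril skin and 29.1, 35.0, 67.2 and 42.5 in vehicle skin. The second, A_52_P544060, gave 16.6 to 23.3 in enalapril skin and 19.8 to 26.0 in vehicle skin. Both groups overlapped on both probes, and the lowest intensity well above background was 9.65 to 13.1 on enalapril arrays and 13.1 to 19.5 on vehicle arrays.

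The level of Ren1 differed by 0.15 ± 0.28 (95% interval −0.50 to 0.79, adjusted p = 0.766) on the first probe and by 0.01 ± 0.17 (−0.38 to 0.41, adjusted p = 0.967) on the second. The first probe's low array was enalapril 2, at −5.33 where the other enalapril arrays lay between −4.51 and −4.40. Some mouse strains carry a second, nearly identical renin gene, Ren2, and the probes of each may bind both mRNAs, so these signals are uncertain as to the gene. The Ren2 probe differed by 0.10 ± 0.26 (adjusted p = 0.834).

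Ace, the gene of the enzyme that enalapril inhibits, was not called on either measurable probe. The brighter, named for transcript variant 2, stood at levels of 0.36, 0.51, 0.80 and 0.61 in enalapril skin and 0.50, 0.35, 0.55 and 0.37 in vehicle skin. The groups overlapped, and the difference of 0.13 ± 0.12 had a 95% interval of −0.14 to 0.40 (adjusted p = 0.498). The interval leaves room for a rise of up to 0.40 log2 and for a fall of up to 0.14.

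The Ace probe named for transcript variant 1 stood at −2.60, −2.10, −1.69 and −1.74 in enalapril skin and −2.30, −2.56, −2.16 and −2.68 in vehicle skin. Enalapril 1 lay among the vehicle arrays and the other enalapril arrays above them all. The difference was 0.39 ± 0.22 (−0.10 to 0.88, adjusted p = 0.260). Another Ace probe, A_51_P310523, was not well above background on any array, at 2.31 to 3.27 intensity units in enalapril skin and 3.66 to 5.64 in vehicle skin. Which bases of the transcripts the probes bind was not examined. Ace is known as an enzyme of vessel lining, and of 10 endothelial markers none was called in limma's test. An unadjusted p under 0.05 was found for 3 of the 10, a share near the 30.4% of all genes. The list had a median difference of −0.05 and a log2 summed level of 4.11 to 4.61 in enalapril skin and 4.34 to 4.55 in vehicle skin. With all arrays, 5 of the 10 differences were below 0, and the largest of those above 0 was Kdr at 0.40 ± 0.22 (adjusted p = 0.247). The genes with the smallest p, Egfl7, Cldn5 and Emcn, were all lower. Without enalapril 4, Egfl7 (−0.70, adjusted p = 0.0095), Cldn5 (−0.48, adjusted p = 0.0180) and Emcn (−0.57, adjusted p = 0.0194) passed, as they did with array weights (0.00669, 0.00983 and 0.0134). Of all 28580 probes, 7061 were called without enalapril 4 and 8534 with array weights, against 2979 in the main fit.

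Of the receptor genes, Agtr1a was measured on all arrays while Agtr1b, Agtr2 and Mas1 were at or near background. On its brighter probe, A_52_P645862, Agtr1a stood at −0.92, −1.26, −1.26 and −0.66 in enalapril skin and −0.75, −0.76, −0.84 and −0.69 in vehicle skin. Enalapril 1, 2 and 3 lay below all vehicle arrays and enalapril 4 above them all. The difference of −0.27 ± 0.15 (−0.60 to 0.07) did not pass, with an adjusted p of 0.267. Without enalapril 4 it was −0.39 and passed, with an adjusted p of 0.0457. That fit called 7061 of 28580 probes, against 2979 with all arrays.

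The dimmer Agtr1a probe, A_51_P236439, gave a difference of like size. Its levels were −3.64, −3.49, −3.42 and −3.28 in enalapril skin and −3.16, −3.36, −3.27 and −3.06 in vehicle skin, with 1 overlap, enalapril 4 lying above vehicle 2. The difference was −0.25 ± 0.11 (−0.51 to 0.02, adjusted p = 0.193), with an exact permutation p of 0.0571, and without enalapril 4 the adjusted p was 0.0820. With normexp background correction this probe's difference was 0.01. On the brighter Agtr1a probe, the Pearson r of Agtr1a with Agt by deviations from the group means was 0.90, a description with no test. It was taken over 8 arrays that differ in slide by group. The enalapril arrays were spread more widely (SD 0.55 for Agt and 0.29 for Agtr1a) than the vehicle arrays (0.11 and 0.06). Both genes ranked the enalapril arrays alike, while vehicle 3 was the highest of its group for Agt and the lowest for Agtr1a. Pericyte and smooth muscle cells are known to carry the AT1 receptor, and 1 of their 10 markers, Kcnj8, fell (8.59% of all genes did), with a log2 summed level of 5.78 to 6.00 in enalapril skin and 5.93 to 6.39 in vehicle skin. Kcnj8 lost its call without enalapril 2 (0.0532) or vehicle 1 (0.0527) and with E1A centring (0.109), and its other probe gave −0.21 (adjusted p = 0.228).

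Agtr1b, the second AT1 receptor gene, was the dim receptor probe with the widest gap between the groups. It gave 2.81, 2.00, 2.89 and 4.13 intensity units in enalapril skin and 9.42, 20.7, 24.0 and 7.68 in vehicle skin. Only vehicle 2 and 3, 2 of the 4 vehicle arrays, were well above background, and these were also the brightest arrays by their 75th percentile. The measured means were −8.31 in enalapril skin and −6.41 in vehicle skin, but with the enalapril arrays placed at their detection floor the signal was at least 1.00-fold higher in vehicle skin, which leaves no difference that could be measured.

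A fit that kept dim probes gave −1.90 ± 0.27 for Agtr1b (adjusted p = 0.0229 over 41127 probes). Like Agtr1b, 657 probes were well above background on 2 arrays, both vehicle, a class defined by signal in vehicle skin alone. Of these, 100% were lower in enalapril skin, with a median difference of −1.51, and 16.6% were at or below Agtr1b. Of 8946 probes well above background on 0 arrays, 86.4% were lower in enalapril skin, with a median difference of −0.38, and 0.145% were at or below Agtr1b. Median local background was 48 to 52 on enalapril arrays and 57.5 to 66 on vehicle arrays, and its part in these differences was not tested.

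Agtr2, the AT2 receptor gene, was not well above background on any array, at 2.54 to 5.55 intensity units in enalapril skin and 5.61 to 11.6 in vehicle skin. Mas1, the receptor gene for angiotensin-(1-7), was not well above background on either probe. Its brighter probe gave 2.96, 9.86, 3.01 and 8.22 in enalapril skin and 3.59, 17.2, 18.8 and 8.24 in vehicle skin, which overlap. Whether these receptors differ between the groups was not detectable on these arrays.

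**Figure D3:**
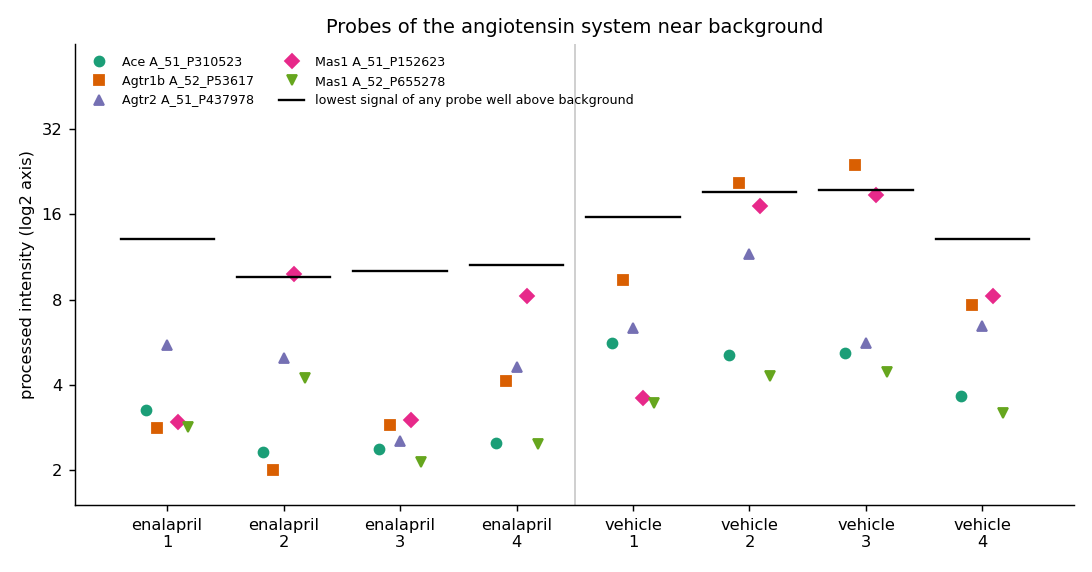
Processed intensity (log2 axis) on each array of the 5 probes of Ace, Agtr1b, Agtr2 and Mas1 that were left out of the test, enalapril arrays on the left and vehicle arrays on the right. Black bars mark the lowest signal of any probe well above background on that array; Agtr1b lies above the bar on vehicle 2 and 3 and one Mas1 probe just above it on enalapril 2, without the flag.

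The peptidase genes Enpep and Lnpep differed by small amounts that did not pass. Enpep, whose product aminopeptidase A trims angiotensin II, stood at −0.20, −0.13, −0.53 and −0.20 in enalapril skin and −0.02, 0.28, −0.22 and 0.34 in vehicle skin. Vehicle 3 lay lowest of its group, below 3 of the enalapril arrays, and the other vehicle arrays lay above all of enalapril. The difference was −0.36 ± 0.16 (−0.71 to −0.01), with an adjusted p of 0.163. An exact permutation test of Enpep gave 0.114.

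Lnpep, whose product cleaves vasopressin and oxytocin and travels with the glucose transporter GLUT4, had 3 probes that disagreed. A_52_P455712 stood at 0.09, 0.11, 0.09 and 0.06 in enalapril skin and −0.31, 0.05, −0.45 and −0.22 in vehicle skin. Every enalapril array lay above every vehicle array, with vehicle 2 close to them. The difference was 0.32 ± 0.12 (0.05 to 0.59), with an adjusted p of 0.114 and a permutation p of 0.0286 by the exact test. In the uncentred series matrix values it was −0.04, where the median of all probes was −0.41.

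The probe of Lnpep's RefSeq transcript, A_52_P302395, stood at −1.29 to −1.07 in enalapril skin and −1.22 to −1.04 in vehicle skin, a difference of −0.05 ± 0.09 (−0.26 to 0.17, adjusted p = 0.790). The other probe, A_52_P442270, gave 0.20 ± 0.33 (−0.56 to 0.95, adjusted p = 0.734), and its enalapril 4 array, at −5.65, lay below the rest. Without that array it was at 0.53 (adjusted p = 0.0804). A_52_P455712 and A_52_P442270 carry a clone accession that is named Lnpep by the array files and was not matched in the RefSeq table.

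**Figure D4:**
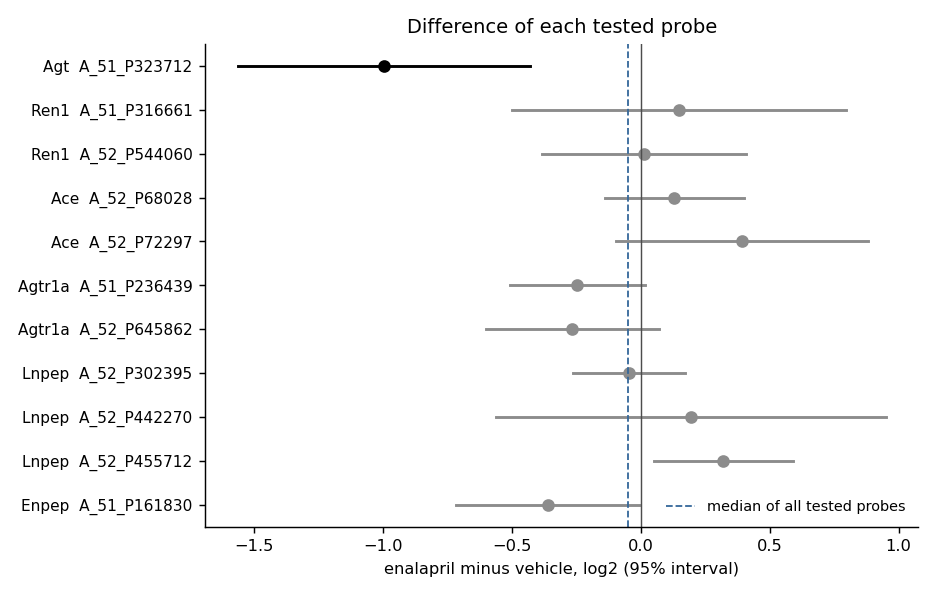
Difference in level, enalapril minus vehicle in log2, of each of the 11 tested probes, with limma's 95% intervals. Agt, in black, passed the test; the dashed line is the median of all tested probes, and 8 of the 11 intervals span 0.

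Across the 11 tested probes 5 differences were below 0 and 6 above, with a median of 0.01, beside −0.05 over all 28580 probes tested. Groups did not overlap for 2 of them, Agt and the bright Lnpep probe, a share of 18.2% where 20.2% of all probes did not overlap. An unadjusted p under 0.05 was found for 3 probes, those of Agt, Enpep and the same Lnpep probe, beside 29.4% of all probes. Each of the 11 was well above background on all 8 arrays. The remaining 5 probes, for Agtr1b, Agtr2, Mas1 and Ace A_51_P310523, were not tested, so that 6 of the 9 genes were.

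By deviations from the group means, the closest genes over the 8 arrays were Kif7, Ppp6r2 and Mtmr3 for Ren1 (Pearson r 0.96, 0.92 and 0.91) and Samd4b, Dok4 and Cep85 for Ace (0.98 for each). For Agtr1a they were Olfr469, Dcaf13 and Egflam (0.99, 0.99 and 0.98), for Lnpep Cc2d1b, Psip1 and Il1f10 (0.98, 0.98 and 0.97), and for Enpep H2-M3, Hmgb2 and Matr3 (0.99, 0.98 and 0.97). None of the angiotensin genes described here was among these closest genes of another. Ren2, the second renin gene, is not one of them. It ranked 5 for Ren1 by Pearson r over the 8 arrays with the group means left in (0.90). By deviations its r with Ren1 was also 0.90, below the genes named for Ren1. Whether shared binding of the probes accounts for this was not tested.

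Other genes of the pathway were called at a share close to that of all genes. In 3 lists of 37 genes, 34 were tested, 1 rose and 2 fell. That is 8.82% changed, where 11% of all 15522 genes did (2.4% higher and 8.59% lower), and the median difference was −0.05 for the lists and −0.10 for all genes. Of 12 other peptidases that form or break angiotensins, none was called by limma and none had an unadjusted p under 0.05, where 30.4% of all genes did. Their smallest p belonged to Dpp3, which degrades angiotensin II, at −0.22 ± 0.10 (adjusted p = 0.180), to Ctsg, the cathepsin G gene, at −0.58 ± 0.30 (adjusted p = 0.233), and to the mast cell chymase gene Cma1 at −0.45 ± 0.29 (adjusted p = 0.345). Ctsg passed without vehicle 3 (−0.89, adjusted p = 0.0391). Other probes of Dpp3 gave −0.98 (adjusted p = 0.0358) and 0.09 (adjusted p = 0.843).

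Among receptor partners, Rgs2, which shortens signals of AT1-coupled G proteins, fell on 1 of 2 probes. It stood at 3.18, 3.17, 3.20 and 3.18 in enalapril skin and 3.85, 3.58, 3.51 and 3.77 in vehicle skin, so that the groups did not overlap. The difference was −0.49 ± 0.11 (adjusted p = 0.0281), and the other Rgs2 probe gave −0.14 (adjusted p = 0.489). Rgs2 was the only one of 6 tested in its list to pass. Nr3c2, the mineralocorticoid receptor, was at −1.01 ± 0.34 (adjusted p = 0.0926) and Arap1 at −0.41 ± 0.15 (adjusted p = 0.109).

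In AT1 signal transduction, 1 gene rose and 1 fell of 16 tested. Prkca, a protein kinase C that acts below the receptor, stood at −3.84, −3.33, −3.41 and −3.85 in enalapril skin and −4.08, −4.21, −4.35 and −4.64 in vehicle skin, and rose by 0.71 ± 0.17 (adjusted p = 0.0376). Arrb2, a beta-arrestin that binds the activated receptor, stood at 1.00, 1.05, 0.71 and 1.21 in enalapril skin and 1.53, 1.66, 1.38 and 1.63 in vehicle skin, and fell by 0.56 ± 0.13 (adjusted p = 0.0341). Groups did not overlap for either. Gnaq, the G protein subunit that couples the receptor to phospholipase C, was at 0.30 ± 0.12 (adjusted p = 0.144), and its second probe rose by 0.55 ± 0.14 (adjusted p = 0.0429). The oxidase gene Nox4, chosen after its values were seen, was at −0.28 ± 0.14 (adjusted p = 0.220) on its brighter probe and fell by 0.67 ± 0.16 (adjusted p = 0.0368) on the other.

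The 3 pathway calls also depended on which arrays were used, as did the calls over all 28580 probes, 2979 with all arrays. Without enalapril 1 or 3 or vehicle 1, 2 or 4 none of the 34 genes was called, and 410 to 798 of all probes were. Without enalapril 2 there was 1 gene (441 of all probes), without vehicle 3 there were 3 (1733 of all probes), and without enalapril 4 there were 6 (7061 of all probes). Rgs2 and Arrb2 passed without enalapril 4 or vehicle 3 and otherwise reached adjusted p of up to 0.0780 and 0.0918. Prkca passed without enalapril 4 alone, and otherwise reached up to 0.0962.

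**Figure D5:**
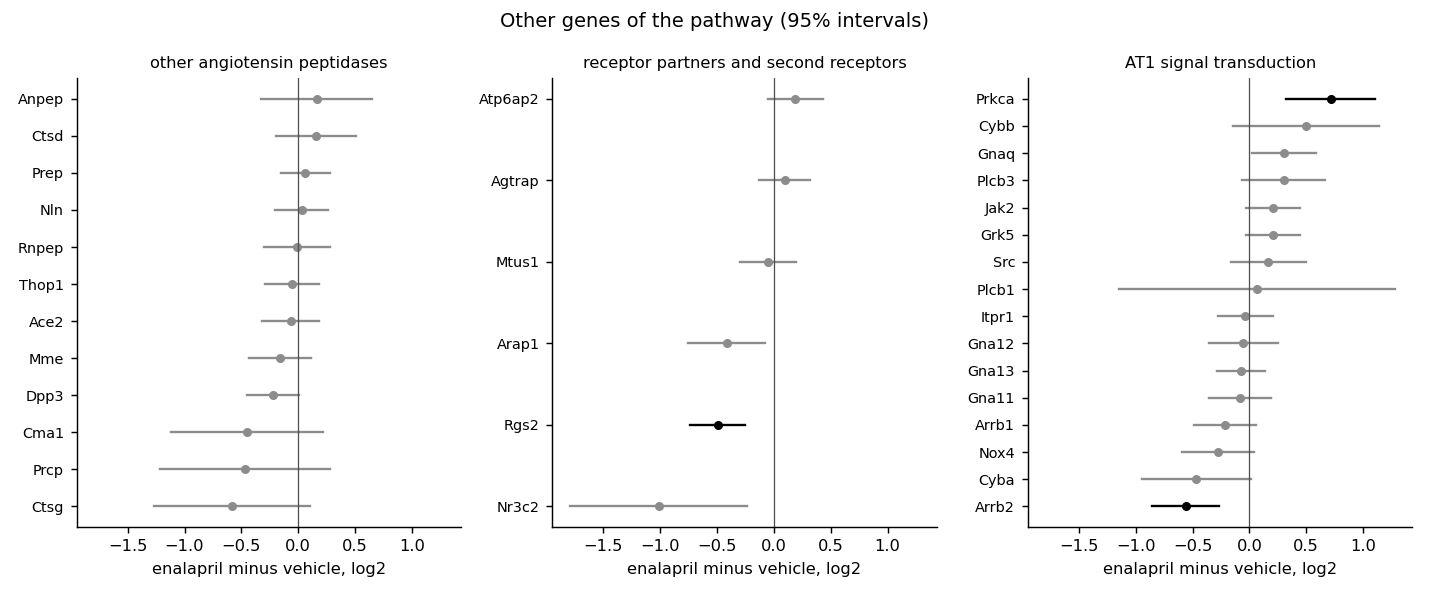
Difference in level, enalapril minus vehicle in log2, of the 34 tested genes of the 3 pathway lists, 1 probe each, with limma's 95% intervals. Black marks the genes past the test (Rgs2 and Arrb2 lower, Prkca higher) and grey those that did not pass.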

How the data were processed

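The authors' scanner files give linear spot intensity from Agilent Feature Extraction 9.1.3.1 per the file headers (9.1 per the submitters' processing notes). Its processed intensity, per the same headers, had the background subtracted and a spatial trend removed on each array, dim spots were given a surrogate, and arrays were left unscaled. Other deposited values, flags of 0 or 1 for spots well above background or outlying, served as filters. In the deposited series matrix the log2 values matched those of the processed intensity, uncentred (medians of 6.39 to 7.30 per array), and any further step is not stated.

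From these files, outlying spots were dropped, replicate spots of a probe averaged, and 47 of 41174 probes left out. Probe names were updated through a RefSeq annotation on GRCm38.p6, used for names and for start sequences: 22951 probes matched by accession, 6659 by symbol and 3096 by synonym, and 8468 kept the file's name. The 75th percentile of each array, taken over its non-control spots, was subtracted on the log2 scale. The 28580 probes that passed the background flag on 4 or more of 8 arrays were fitted with group as the only term in limma 3.58.1 (R 4.3.3), two-sided, with Benjamini-Hochberg adjustment over all of them and calls at an adjusted p under 0.05. Gene lists used the brightest probe per gene, for 15522 genes. The number of arrays, 4 per group, limits the precision. The steps were tested on simulated data. Where all arrays of a group failed the background flag, the probe has only a bound there, from each array's lowest passing signal or its own, whichever is higher.

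The genes and lists were chosen with earlier results of these data known. All probes of the 9 genes are named, in each pathway list the genes past the test or up to 3 with the smallest p, up to 3 per marker list, and the genes most like each tested gene (5 for Agt, 3 for others). Other probes and genes named where they bear on these were chosen after their values were seen. Alternatives covered background correction, normalization, centring on the median or 10 E1A controls, the series matrix, filters, probes per gene, variance models, array weights, a replicate block and each array left out. Deviations of samples with the same replicate number had correlations of −0.13 to 0.17, and the numbers were not taken as pairs. For numbers 2 and 3 the correlation was above the best with another number (0.077 against 0.072, and 0.17 against −0.049). The replicate number was also the array's position, 1 to 4, in both groups, so the replicate block was a block of position as well. Slide and scan could not be fitted as blocks, since each held 1 group.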

Additional observations from a re-analysis of the deposited data

Results flagged for a closer look

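Among 58 groups of 4 arrays examined, for 11 probes of the angiotensin genes and 18 other named genes, 5 held an array far from the other three by Dixon's test at 95%, where chance gives about 1 in 20. The Ren1 probe A_51_P316661 was at −5.33 on enalapril 2, below the other enalapril arrays at −4.51 to −4.40. The Lnpep probe A_52_P442270 was at −5.65 on enalapril 4, below −4.43 to −4.19. Cidec, a lipid droplet gene, was at 4.78 on enalapril 4, above 4.14 to 4.17, and the endothelial gene Egfl7 was at 2.29 on enalapril 4, above 1.64 to 1.66. Adipoq was at 4.21 on vehicle 4, above the other vehicle arrays at 4.00 to 4.02. The array enalapril 4 holds 3 of the 5.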

How the results depend on the processing

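Agt was lower in all 20 alternatives, at −1.36 to −0.81. It missed the threshold by quantile normalization (−0.91, adjusted p = 0.0592), median centring (−1.03, 0.0536), E1A control centring (−1.07, 0.0553), no filter on dim probes (0.0702) and with the replicate block (0.0838). The series matrix values gave −1.36 (0.00865), where the median of all probes was −0.41. Of the 11 angiotensin probes tested, 0 were called by quantile normalization, median or E1A centring, with no filter (which called Agtr1b, at 0.0229) or with the replicate block, 2 with array weights (the brighter Agtr1a probe at 0.0207), and 0 to 2 with an array left out. The calls of Rgs2, Arrb2 and Prkca were ended by E1A centring (0.201, 0.178 and 0.202), the series matrix (0.0810, 0.0675 and 0.463), no filter (0.0538, 0.0618 and 0.0659) and the replicate block (0.0807, 0.0672 and 0.0732). Rgs2 was also lost by quantile normalization (0.0766) and the mean of its probes (0.0815), and Prkca by normexp (0.0870). The replicate block also ended the calls of the markers Kcnj8 (0.0618), Slc2a4 (0.0618), Cidec (0.0715), Adipoq (0.0793), Mylpf (0.0654), Tnnt3 (0.0633) and Tnnc2 (0.0759). E1A centring ended the same calls (0.0753 to 0.254). Quantile normalization ended those of Adipoq (0.140) and Tnnt3 (0.0635), and no filter those of Cidec (0.0503) and Adipoq (0.0728). Adipoq was also lost by median centring (0.0711) and the series matrix (0.103). Of pathway genes, 0 were called with the replicate block and 0 to 6 with an array left out.

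Of all probes, 2979 changed, 36.6% of them higher. Normexp gave 1874, median centring 1981, E1A centring 280, the series matrix 1548 (4.97% higher), no filter 1392, array weights 8534 and the replicate block 38. Leaving out enalapril 4 gave 7061, and leaving out any other array gave 410 to 1733. Quantile normalization gave 2103, with 46.7% higher.

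Differences that turned sign were small. With the series matrix values the Ren1 probes were at −0.22 and −0.35, the bright Ace probe at −0.23, the 2 clone probes of Lnpep at −0.17 and −0.044 and the smooth muscle gene Myh11 at −0.0033, all above the median of −0.41. The dimmer Agtr1a probe was at 0.0058 by normexp. Ren1 A_51_P316661 was at −0.035 with array weights and between −0.064 and 0.37 with an array left out. Ren1 A_52_P544060 was at −0.022 by median centring, −0.056 by E1A centring, −0.060 with array weights and between −0.090 and 0.16 with an array left out. The cause of these changes was not tested. Signal over background limits Agtr1b, Agtr2, Mas1 and the dimmest Ace probe.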
